A study of Mus musculus with 10 samples.

Results

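Genes that encode chromatin remodelers and histone lysine enzymes were examined in neural crest cells with and without a stabilised p53. The members were found by a rule on gene symbols, set with earlier results of these data known. It takes the SWI/SNF-related Smarc genes, Arid1 to Arid5, the numbered Kmt, Kdm and Setd genes, Ehmt1, Ehmt2, Ezh1, Ezh2, Nsd1, Ash1l, Dot1l, Crebbp, Ep300 and Ep400. Kdm5d, which is Y-linked, was left out. The rule found 66 of 49671 listed genes, and 64 of them were among the 14528 genes with enough counts to be tested. Kdm4d and Arid3c, with 9 and 10 counts in all control libraries together, were not tested.

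Polyadenylated RNA was sequenced from flow-sorted GFP-positive cells of single mouse embryos at embryonic day 10.5, on a mixed 129/Sv and C57BL/6 background. Each library came from 1 embryo. The 5 control embryos had the genotype Wnt1Cre;R26mTmG;p53+/+, and the 5 p53_activated embryos, their littermates, had the genotype Wnt1Cre;R26mTmG;p53LSL-25,26/+. All 10 embryos carried the Wnt1-Cre driver and the R26mTmG reporter, whose GFP is switched on by Cre. In the p53_activated embryos Cre also released a stabilised p53 protein from 1 engineered Trp53 allele, beside a normal one. Wnt1-Cre acts in the dorsal neural tube as well as in the neural crest that leaves it, so the sorted cells can hold both.

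Library totals were 12368058 to 28379562 counts, and every pair of libraries differed beyond counting error, with chi-square values of 11.3 to 60.3 over their degrees of freedom. The p53 target Cdkn1a, the gene of the CDK inhibitor p21, stood at 5.82 to 9.57 CPM (counts scaled to the library total times its TMM factor) in control and 90.8 to 117 CPM in p53_activated libraries, and Trp53 at 12.3 to 24.6 and 26.2 to 34.1 CPM. The neural crest markers Sox10 (16.8 to 26.0 CPM in control) and Tfap2b (41.2 to 63.0 CPM) were present, and 0 of 7 crest markers tested passed the test between groups. Neural tube markers were present too, with a summed level of 56.6 to 141 CPM in control and 89.2 to 133 CPM in p53_activated libraries. Of these 6, 5 had fold changes above 0, with a median of 0.38 on the log2 scale, and Olig3, a dorsal progenitor factor, rose by 0.85 ± 0.21 (edgeR adjusted p = 0.0237). Summed mesenchyme markers overlapped, at 277 to 407 CPM in control and 269 to 322 CPM in p53_activated libraries. Of these 7, 3 had fold changes above 0, with a median of -0.10 on the log2 scale. Only Prrx2 passed, with a fall of 0.41 on the log2 scale (edgeR adjusted p = 0.0386). Of markers of other cells, all 6 neuronal genes were lower in p53_activated libraries, with a summed level of 461 to 621 CPM in control against 251 to 373 CPM. Erythroid RNA ranged from 817 to 4427 CPM in control and from 493 to 5935 CPM in p53_activated libraries. Summed macrophage markers stood at 8.39 to 45.5 CPM in control and 16.9 to 33.4 CPM in p53_activated libraries, and summed endothelial markers at 6.84 to 27.5 and 8.25 to 23.3 CPM. The macrophage markers Ptprc and Adgre1 and the endothelial marker Cdh5 were at 0 CPM in at least 1 library of each group, while Cx3cr1 (from 5.03 CPM) and Kdr (from 2.95 CPM) were present in all 10. No erythroid, macrophage, endothelial, epithelial or muscle marker passed the test. Summed epithelial markers still went from 69.5 to 161 CPM in control to 38.0 to 110 CPM in p53_activated libraries. Of 6 epithelial markers, 0 had fold changes above 0, with a median of -0.78 on the log2 scale. For muscle it was 1 of 6, with a median of -0.72 and sums of 48.9 to 111 and 40.4 to 74.0 CPM. In bulk RNA, fewer cells of a type and less RNA per cell cannot be told apart, and the part of neuronal, neural tube, mesenchymal or other cells in the results below was not tested.

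DNA in the nucleus is wound on histones, and lysines in the histone tails carry methyl and acetyl groups that mark active and silent regions. Methyltransferases of the Kmt and Setd families add methyl groups, Kdm demethylases remove them, Ep300 and Crebbp add acetyl groups, and remodelers such as the BAF complex use ATP to move nucleosomes. Heterozygous loss of several of these genes is known from human syndromes with facial and heart defects, such as KMT2D in Kabuki syndrome, NSD1 in Sotos syndrome and ARID1B in Coffin-Siris syndrome, and the face and the outflow tract of the heart draw on the neural crest.

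The 3 promoter windows below are given because they belong to the 2 genes with the largest fold changes, Kdm2b and Kmt2d. The Kdm2b pair comes from 2 annotated starts of a gene that has a single count per library. Sequences are from RefSeq on GRCm38.p6, from 250 bases before to 50 bases after the start, 5′ to 3′ on the gene's strand. Capitals mark the GC box GGGCGG or its complement CCGCCC, the letters bound by Sp1-type factors.
Kdm2b upstream start: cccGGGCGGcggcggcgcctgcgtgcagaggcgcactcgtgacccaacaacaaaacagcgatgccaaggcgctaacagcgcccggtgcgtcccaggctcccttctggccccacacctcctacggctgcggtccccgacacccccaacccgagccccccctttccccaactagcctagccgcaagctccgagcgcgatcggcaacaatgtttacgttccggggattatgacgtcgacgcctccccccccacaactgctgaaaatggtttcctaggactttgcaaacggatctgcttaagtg
Kdm2b inner start: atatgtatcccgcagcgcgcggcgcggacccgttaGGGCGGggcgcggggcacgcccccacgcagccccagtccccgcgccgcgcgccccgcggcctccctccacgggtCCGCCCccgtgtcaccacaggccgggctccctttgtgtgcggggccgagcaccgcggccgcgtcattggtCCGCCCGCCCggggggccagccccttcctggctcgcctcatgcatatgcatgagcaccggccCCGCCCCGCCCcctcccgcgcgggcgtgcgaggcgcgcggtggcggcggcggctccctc
Kmt2d: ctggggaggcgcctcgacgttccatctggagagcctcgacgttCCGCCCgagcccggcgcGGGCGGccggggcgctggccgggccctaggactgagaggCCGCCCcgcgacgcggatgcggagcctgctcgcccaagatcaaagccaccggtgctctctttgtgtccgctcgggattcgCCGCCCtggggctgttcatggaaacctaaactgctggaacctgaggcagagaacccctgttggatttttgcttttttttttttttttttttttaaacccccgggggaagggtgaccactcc
The windows lie on the minus strand at chr5:122989050-122989349 and chr5:122900318-122900617 for Kdm2b and at chr15:98871156-98871455 for Kmt2d. The Kdm2b windows are 88732 bases apart, so the inner start lies inside the gene. Of the member symbols, 52 matched a window. Their windows had a median GC content of 65.3% and 28 CpG dinucleotides, against 52.7% and 7 for windows of all genes. A GC box on either strand was in the windows of 39 of 52 members and of 5 of 6 that rose, against 38.2% of all genes. A p53 half-site, the motif of the p53 response element read on either strand, was found for 2 of 52 members and 0 of 6 that rose, against 9.6% of all genes. The CCAAT box (CCAAT, either strand) was found for 18 of 52 members against 41.1% of genes, the cell cycle homology region (TTTGAA) for 4 against 20.2%, and the E box (CACGTG) for 3 against 8.1%. These counts describe letters in a short window and say nothing of binding.

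Of the 64 tested members, 9 were higher in p53_activated libraries (Kdm2b, Kmt2d, Kdm6b, Setd5, Nsd1, Kmt2b, Kmt2a, Dot1l and Ep400) and 0 were lower by edgeR's quasi-likelihood test at an adjusted p under 0.05. That is 14.1% of the tested members, while 4.49% of all tested genes were called higher and 2.74% lower. The 9 genes lie on GRCm38 at chr5:122870665-122989823 (Kdm2b), chr15:98831669-98871204 (Kmt2d), chr11:69398508-69413675 (Kdm6b), chr6:113077365-113153435 (Setd5) and chr13:55209782-55318325 (Nsd1), and at chr7:30568858-30588726 (Kmt2b), chr9:44803355-44881296 (Kmt2a), chr10:80755206-80795461 (Dot1l) and chr5:110664373-110770717 (Ep400). Each gene has a single count per library. Below an unadjusted p of 0.05 were 22 members with higher levels, beside 12.0% of all tested genes, and 1 with a lower level, beside 10.6%. DESeq2 also called 0 members lower. The median log2 fold change of members was 0.20, against -0.01 for all tested genes, and it was 0.13 without p53_activated replicate 4. Values above 0 were found for 49 members, or 76.6%, against 48.6% of all genes and 61 of 87 tested genes in a list of other chromatin genes. The groups did not overlap, with every p53_activated library above every control library, for 8 members (Ep400, Kdm2a, Kdm2b, Kdm5a, Kmt2b, Setd5, Smarca4 and Smarcc1). That pattern was seen in 4.54% of all tested genes. The opposite pattern was seen for 0 members and 3.52% of genes. Counts of the authors' deposited table gave 12 members higher at its adjusted p under 0.05, the same 9 with Kdm5c, Kdm4a and Ep300, and 0 lower, against 6.34% of its genes higher.

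**Figure D1:**
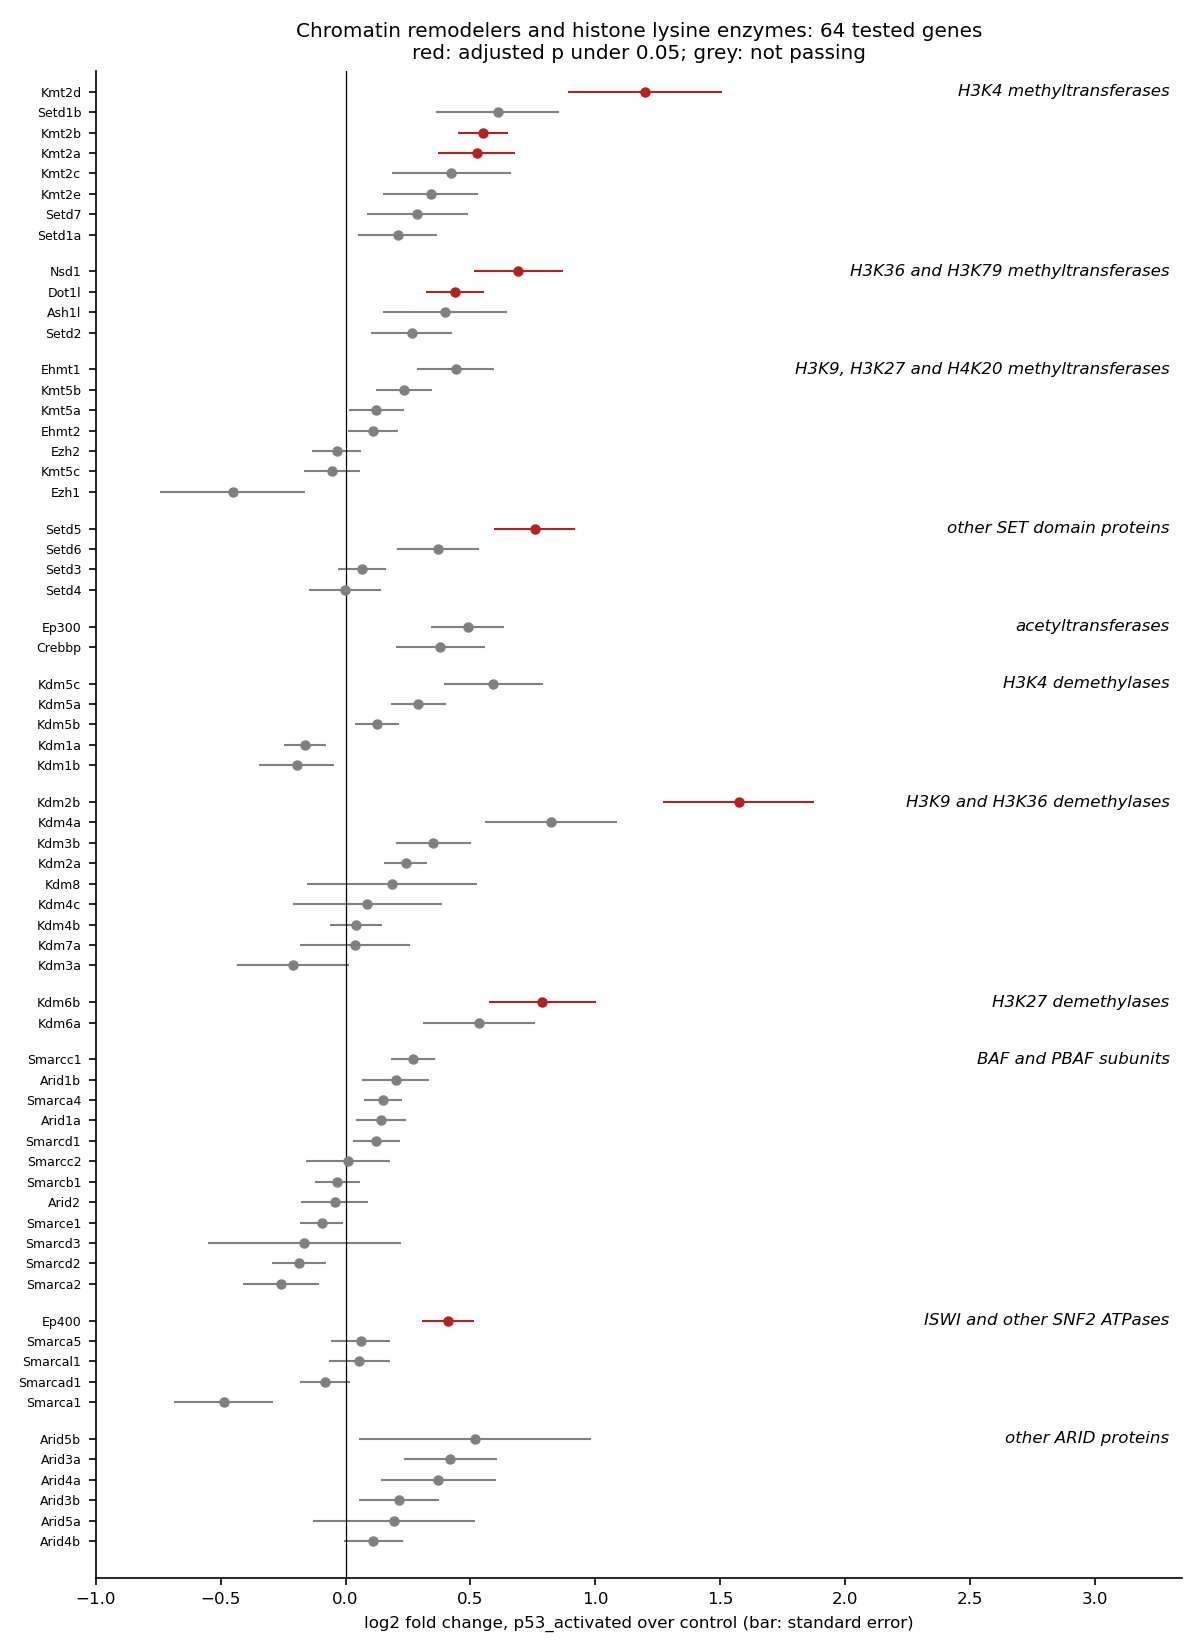
Log2 fold change of the 64 tested genes (x axis, p53_activated over control, points with standard error bars), grouped by role. The 9 red points passed the test and all lie above 0, from 0.41 for Ep400 to 1.57 for Kdm2b. The BAF and PBAF subunits lie between -0.26 and 0.27, and the difference between role groups was not tested.

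In the group of 8 genes labelled here as H3K4 methyltransferases, 3 rose (Kmt2b, Kmt2d and Kmt2a) and 0 fell, beside 4.49% of all tested genes called higher. All 8 had fold changes above 0, with a median of 0.47 on the log2 scale. The group was not tested against the other groups. Kmt2b, which deposits H3K4 methylation at promoters in a complex with menin, had the smallest p of all members. Its levels were 53.3, 60.2, 47.4, 48.8 and 49.3 CPM in control replicates 1 to 5 and 72.5, 69.2, 73.7, 88.1 and 75.5 CPM in p53_activated replicates 1 to 5. The lowest p53_activated embryo stood above the highest control embryo. The log2 fold change was 0.55 ± 0.10 (SE, n = 5 per group), with an edgeR adjusted p of 0.00314.

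Kmt2d, the enhancer H3K4 monomethyltransferase, had a larger but less even change. Control levels were 58.5, 42.5, 36.6, 35.2 and 33.6 CPM, and p53_activated levels were 50.1, 77.6, 65.2, 157 and 123 CPM. Replicates 4 and 5 were the highest, replicate 1 lay below the highest control, and the coefficient of variation was 46.8% against 24.7% in control. The log2 fold change was 1.20 ± 0.31 with an edgeR adjusted p of 0.0447.

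Kmt2a, the MLL1 protein that maintains Hox gene expression, was at 39.2, 48.5, 45.0, 46.1 and 53.5 CPM in control and at 54.8, 49.4, 60.2, 90.6 and 78.5 CPM in p53_activated libraries. Replicate 2 of the p53_activated group lay within the control range and the other 4 above it. The log2 fold change was 0.52 ± 0.15 with an edgeR adjusted p of 0.0497, just inside the threshold. Of 23 other fits, 5 called Kmt2a, and its adjusted p was 0.0501 with RLE scaling, 0.0617 with upper quartile scaling, 0.0522 at a minimum count of 50, 0.0559 with non-robust dispersions and 0.0765 with limma-voom. Kmt2c, the close relative of Kmt2d, went from 17.2 ± 3.76 to 22.9 ± 9.27 CPM (SD, n = 5) and did not pass (edgeR adjusted p = 0.322), and Setd1b, the catalytic subunit of a promoter H3K4 complex, had a log2 fold change of 0.61 ± 0.25 (adjusted p = 0.159). Its relative Setd1a had the highest level per length of the group (11.5 RPKM in control, CPM per kb of exon) and a log2 fold change of 0.21 ± 0.16. Setd1a shares 52.3% of its exon length with other annotated genes, and its count is uncertain because no source used here states the strand setting of the counting.

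Both classes of H3K36 and H3K79 methyltransferase, which mark transcribed gene bodies, held a rise. In this small group 2 of 4 members passed, beside 4.49% of all tested genes called higher, and it was not tested against the other groups. Nsd1, the H3K36 dimethyltransferase, was at 37.3, 43.1, 40.1, 38.0 and 49.8 CPM in control and 44.2, 57.9, 59.2, 99.7 and 74.7 CPM in p53_activated libraries. Replicate 1 of the p53_activated group fell inside the control range, and the other 4 lay above it. The log2 fold change was 0.69 ± 0.18 with an edgeR adjusted p of 0.031. Dot1l, the only known H3K79 methyltransferase and the member of this group with the highest level per length, was at 62.8, 58.6, 63.4, 48.5 and 46.9 CPM in control and 61.6, 74.1, 77.4, 86.2 and 80.8 CPM in p53_activated libraries. Here too only replicate 1 overlapped the controls, and the log2 fold change was 0.44 ± 0.12 (adjusted p = 0.0323). Setd2, which trimethylates H3K36, and Ash1l, which dimethylates it, had log2 fold changes of 0.26 ± 0.16 and 0.40 ± 0.25 and did not pass.

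Of the enzymes of silencing marks, the H3K9, H3K27 and H4K20 methyltransferases, 0 of 7 passed, with a median log2 fold change of 0.11. In a group of this size, that count is near the share of all genes and was not tested against the other groups. Ezh2, the main catalytic subunit of Polycomb repressive complex PRC2, was at 178 ± 22.4 CPM in control and 173 ± 12.6 CPM in p53_activated libraries, a log2 fold change of -0.04 ± 0.10. Its paralog Ezh1 was at 8.20 ± 3.66 and 5.99 ± 1.62 CPM. Ehmt2, the H3K9 methyltransferase G9a, was the highest member per length, with 628 ± 86.7 CPM in control and 677 ± 59.7 CPM in p53_activated libraries. Its partner Ehmt1 had the smallest p of the group, with a log2 fold change of 0.44 ± 0.15 and an edgeR adjusted p of 0.0975.

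Setd5, a SET domain protein of neural development whose own enzyme activity is debated, rose. It was 1 of 4 genes in the group of other SET genes to pass, beside 4.49% of all tested genes called higher. Its control levels were close together, at 35.7, 39.95, 35.2, 35.4 and 36.6 CPM, and its p53_activated levels were 43.0, 50.8, 54.5, 88.4 and 72.0 CPM. The groups did not overlap, and replicates 4 and 5 again stood highest. The log2 fold change was 0.76 ± 0.16 with an edgeR adjusted p of 0.0104. Setd3, the actin histidine methyltransferase, had the highest level per length of these 4 (19.6 RPKM in control) and a log2 fold change of 0.06 ± 0.10.

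The 2 acetyltransferases did not pass, which in so small a group is near the share of all genes. Ep300, a coactivator that acetylates histones at enhancers and also acetylates p53, had a mean of 23.1 ± 2.43 CPM in control and 32.4 ± 6.92 CPM in p53_activated libraries, and its log2 fold change of 0.49 ± 0.15 just missed the threshold (edgeR adjusted p = 0.0546). Crebbp, its paralog, went from 30.7 ± 5.19 to 39.9 ± 10.5 CPM (adjusted p = 0.221).

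Kdm2b had the largest fold change of all members and was 1 of 9 tested H3K9 and H3K36 demethylases to rise, with 0 falling. Of all tested genes, 4.49% were called higher, and the group was not tested against that share. The Kdm2b protein binds unmethylated CpG islands, removes methyl groups from H3K36 and brings a variant Polycomb complex to these sites. Control levels were 8.93, 7.63, 7.27, 7.98 and 6.48 CPM, and p53_activated levels were 9.64, 18.3, 17.0, 37.7 and 31.2 CPM. All p53_activated embryos were above all controls, but they spread widely: replicate 1 was close to the highest control, replicates 2 and 3 stood at about the same level, and replicates 4 and 5 were the highest. The mean rose from 7.66 ± 0.90 to 22.8 ± 11.4 CPM, or 2.97-fold, with a log2 fold change of 1.57 ± 0.30 and an edgeR adjusted p of 0.00704. Of its exon length, 8.74% overlaps other genes. Rnf34 and A930024E05Rik, 2 of those on the other strand, had log2 fold changes of -0.17 and 0.42 and did not pass. Rnf34 had means of 28.6 CPM in control and 25.3 CPM in p53_activated libraries, above those of Kdm2b, and A930024E05Rik 3.92 and 5.28 CPM. The part of shared reads in the Kdm2b count was not tested. Of the other demethylases in the group, Kdm4a, which acts on H3K9 and H3K36, went from 17.6 ± 3.63 to 30.9 ± 14.6 CPM (adjusted p = 0.0824), and its paralog Kdm4b, the highest per length of the group, was at 65.2 ± 8.996 and 67.0 ± 5.30 CPM.

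Kdm6b, which removes the H3K27 mark set by Ezh2, rose, and 1 of 2 H3K27 demethylases thus passed. So small a group was not tested against the 4.49% of all tested genes called higher. Kdm6b was at 31.3, 31.5, 20.4, 30.4 and 35.99 CPM in control and 33.9, 37.4, 48.1, 74.0 and 64.4 CPM in p53_activated libraries. Only replicate 1 of the p53_activated group lay inside the control range. The log2 fold change was 0.79 ± 0.21 with an edgeR adjusted p of 0.0416. Kdm6bos, an antisense gene at this locus that shares 4.11% of the Kdm6b exon length, had means of 0.507 and 2.01 CPM, low levels beside those of Kdm6b. Its log2 fold change was 2.04 and did not pass (edgeR adjusted p = 0.0884). The paralog Kdm6a, an X-linked partner of Kmt2c and Kmt2d in their complex, went from 5.79 ± 1.56 to 8.40 ± 1.57 CPM and did not pass (adjusted p = 0.170).

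None of the 5 H3K4 demethylases passed, which in so small a group is near the share of all genes. Kdm5c, an X-linked gene that escapes X inactivation, came nearest, with a log2 fold change of 0.59 ± 0.20 (edgeR adjusted p = 0.089). By Xist and Y-linked transcripts, control replicates 2 and 5 and p53_activated replicates 2, 3 and 5 were female. Female controls stood at 52.4 and 59.9 CPM of Kdm5c and male controls at 34.1, 37.0 and 41.7 CPM. In the p53_activated group the females had 62.8, 64.5 and 86.6 CPM and the males 42.1 and 82.3 CPM. The log2 difference between female and male embryos in a fit with both terms was 0.38 ± 0.17 and did not pass (edgeR unadjusted p = 0.0428), nor did that of another member, and 0.00688% of all tested genes were called higher in female embryos. Kdm1a, the flavin-dependent demethylase LSD1 and the highest of these 5 per length (36.7 RPKM in control), had a log2 fold change of -0.16 ± 0.08.

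Among remodelers, 0 of 12 BAF and PBAF subunits passed in either direction, and 6 of the 12 had fold changes above 0, with a median of -0.01. In a group of this size, that count is near the shares of all tested genes, 4.49% higher and 2.74% lower. It was not tested against the other groups. Smarca4, the BRG1 ATPase of these complexes, was at 279 ± 14.4 CPM in control and 310 ± 16.1 CPM in p53_activated libraries, with no overlap but a log2 fold change of only 0.15 ± 0.08 (edgeR adjusted p = 0.265). Smarcc1, the BAF155 scaffold subunit, came nearest, from 162 ± 7.57 to 196 ± 22.1 CPM (adjusted p = 0.0774). Smarcd2, the highest subunit per length, was at 158 ± 28.7 and 139 ± 5.82 CPM. The DNA-binding subunits Arid1a and Arid1b had log2 fold changes of 0.14 ± 0.10 and 0.20 ± 0.14.

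Ep400, the ATPase of the TIP60 complex that exchanges histone H2A variants, was the only riser among 5 ISWI and other SNF2 ATPases. Beside it, 4.49% of all tested genes were called higher, and the group was not tested against that share. Ep400 was at 56.3, 57.9, 58.9, 56.3 and 63.5 CPM in control and 67.7, 70.6, 71.0, 93.7 and 85.9 CPM in p53_activated libraries. The groups did not overlap, and the log2 fold change was 0.41 ± 0.10 with an edgeR adjusted p of 0.0259. Smarca1, the X-linked ISWI ATPase SNF2L, had the lowest fold change of all members (-0.49 ± 0.20, adjusted p = 0.155). Its control levels were uneven, at 67.0, 47.0, 33.5, 30.4 and 31.98 CPM, with replicates 1 and 2 above the p53_activated range of 24.5 to 33.9 CPM. Smarcal1, a DNA-annealing helicase of stalled replication forks and the highest of these 5 per length, had a log2 fold change of 0.06 ± 0.12. Of the 6 tested members of the other ARID genes, 0 passed, again near the share of all genes in so small a group. Arid3a, a DNA-binding protein known to be induced by p53 in other cells, was both the highest per length and the nearest to passing, with 23.6 ± 5.48 and 31.6 ± 7.22 CPM (adjusted p = 0.193).

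**Figure D2:**
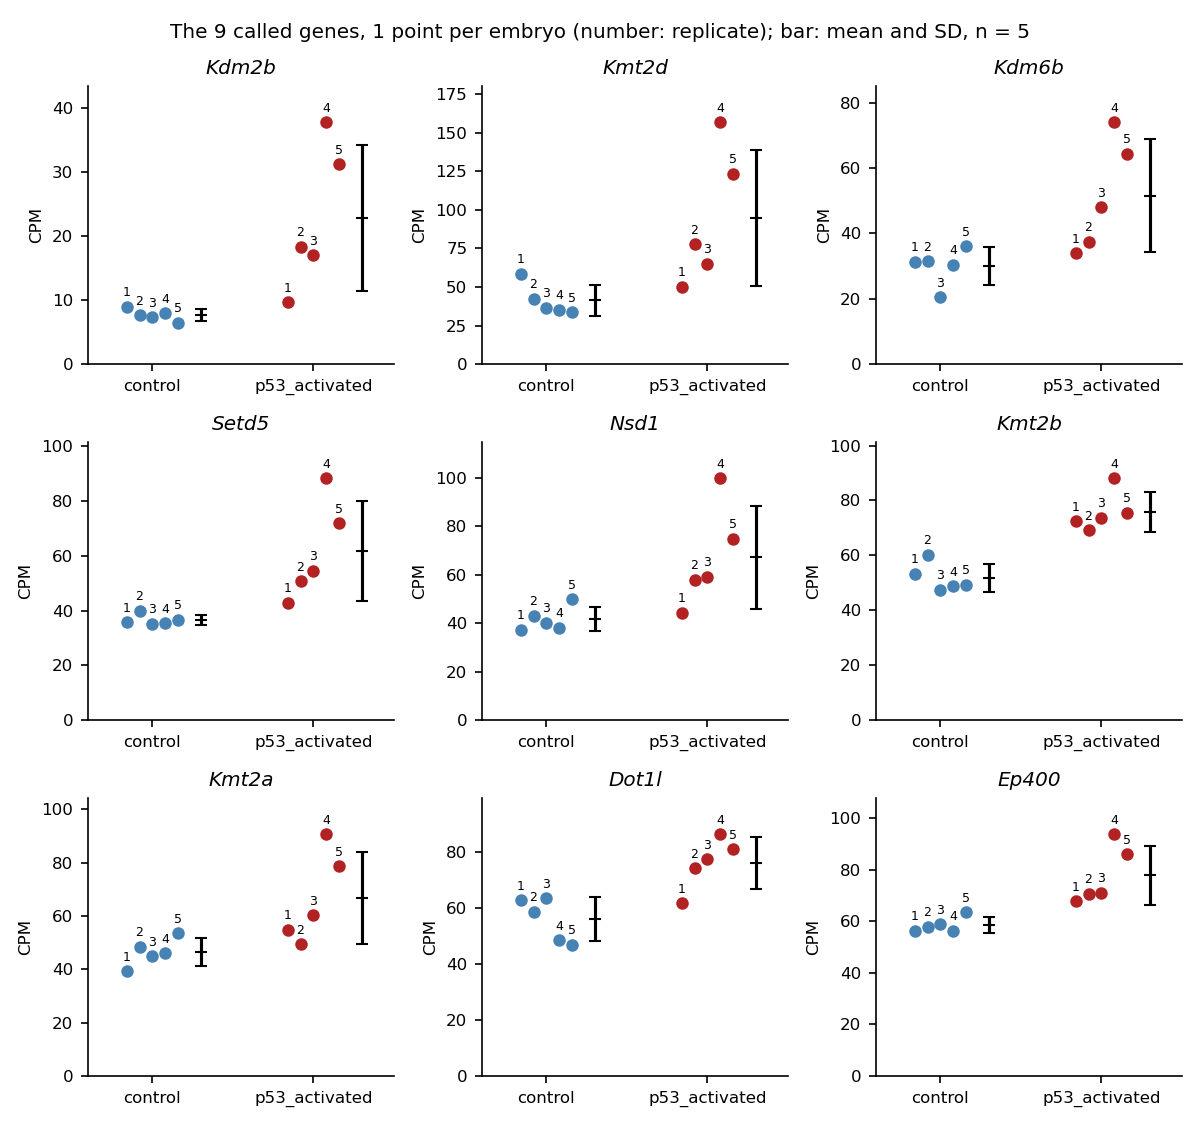
CPM (y axis, from 0) of the 9 genes that passed the test, with 1 point per embryo numbered by replicate and the mean and SD of 5 embryos beside each group. In all 9 panels p53_activated replicate 4 is the highest point and replicate 5 the next, for example 37.7 and 31.2 CPM of Kdm2b.

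The p53_activated embryos differed among themselves in the same order for most of these genes. All 9 genes that rose were highest in replicate 4, and replicates 4 and 5 were the 2 highest libraries for all 9. The lowest p53_activated embryo was replicate 1 for 7 genes and replicate 2 for 2. Of all 64 tested members, 40 had their highest p53_activated level in replicate 4. The same share was not counted over all tested genes, so this order is not shown to be particular to members. The coefficient of variation was greater in the p53_activated group for 7 of the 9 and for 57.8% of tested members, against 49.4% of all tested genes. Cdkn1a did not share this order: it was lowest in replicate 4, at 90.8 CPM, and highest in replicate 1, at 117 CPM. Trp53 was highest in replicate 4, at 34.1 CPM, against 26.2 to 28.8 CPM in the other p53_activated embryos.

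Without replicates 4 and 5 of the p53_activated group, 3 members passed (Kdm2b, Kmt2b and Setd5), beside 3.0% of all tested genes called higher, and the log2 fold change of Kdm2b was 0.98 and that of Setd5 0.45. Without control replicates 1 and 2, which stood apart for Smarca1, 2 members passed (Kmt2b and Dot1l), beside 3.07% of genes, with Kdm2b at an edgeR adjusted p of 0.0714 and Setd5 at 0.057. Leaving out any 1 of the 10 libraries kept Kmt2b, Kdm2b and Setd5 past the threshold. Without control 2, control 4 or p53_activated 5, only these 3 passed, 4.69% of tested members. Over all tested genes, 444, 437 and 430 were called higher in these fits. Ep400 missed the threshold without control 2 or 4 or p53_activated 4 or 5 (adjusted p of 0.0505 to 0.0745). Nsd1 missed it without control 1, 2, 3 or 4 or p53_activated 5 (0.0578 to 0.0786). Dot1l missed it without control 2, 4 or 5 or any of p53_activated 2 to 5 (0.0556 to 0.0816), and Kdm6b without any of control 1 to 4 or p53_activated 3 to 5 (0.0659 to 0.0955). Kmt2d missed it without any 1 control or p53_activated 2, 4 or 5 (0.0562 to 0.103), and Kmt2a without any 1 control or p53_activated 3, 4 or 5 (0.0517 to 0.127). With embryo sex as a term, Kmt2b, Kdm2b, Setd5 and Ep400 passed, beside 3.41% of genes called higher, and the other 5 had adjusted p of 0.0529 (Nsd1) to 0.0768 (Kmt2a). With library totals and no scaling factor, Kmt2b, Kdm2b and Setd5 passed, and the other 6 had 0.0546 (Ep400) to 0.0893 (Kmt2a). These 3 were 4.69% of tested members, beside 517 of all 14528 tested genes called higher. Without a filter on low counts, Kdm6b (0.12) and Kmt2d (0.112) did not pass. DESeq2 called 13 members higher, adding Ep300, Kdm4a, Kdm5c and Smarcc1, beside 6.71% of its tested genes.

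**Figure D3:**
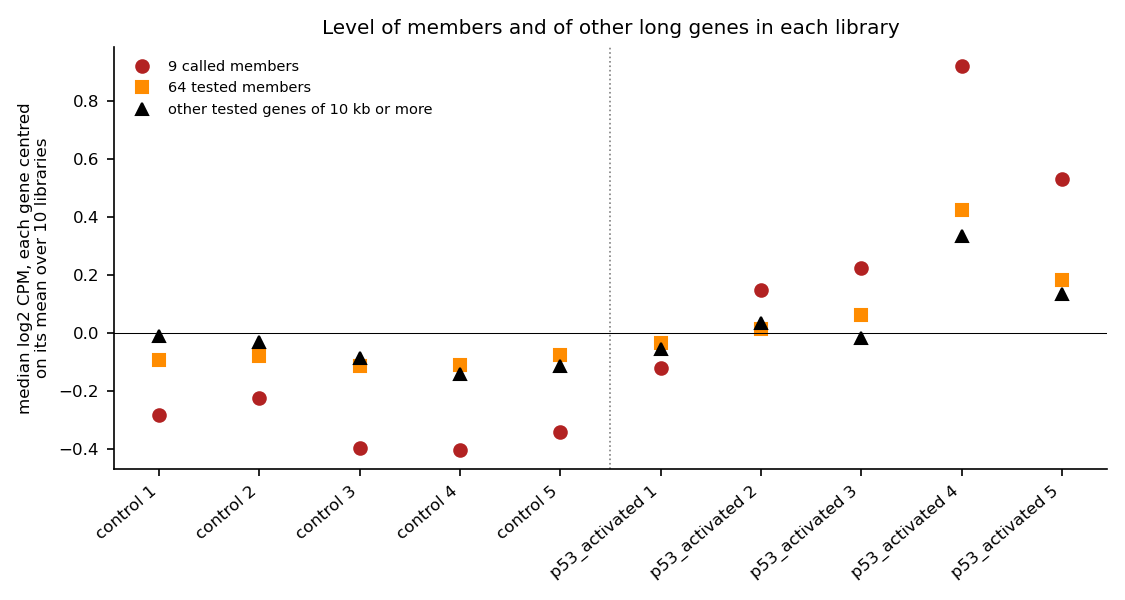
Median log2 CPM in each library (x axis), after each gene was centred on its mean over the 10 libraries, for the 9 genes that rose (circles), all 64 tested members (squares) and 1342 other tested genes with exons of 10000 bases or more (triangles). In p53_activated replicate 4 the 3 medians are 0.92, 0.42 and 0.33, the highest of any library. The 9 genes were picked because they rose in p53_activated libraries, so high medians there follow from that choice. Their gap to the members and to the other long genes therefore carries no information.

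Many members are long genes, and other long genes also had their highest levels in p53_activated replicates 4 and 5. The median exon length was 8170 bases for tested members and 13970 bases for the 9 that rose, against 4237 bases for all tested genes. In p53_activated replicate 4, the centred log2 level had a median of 0.42 over the members and 0.33 over 1342 other genes with exons of 10000 bases or more. In replicate 5 the medians were 0.18 and 0.14. In replicates 1, 2 and 3 they were -0.04, 0.01 and 0.06 over members and -0.05, 0.04 and -0.02 over the other long genes. Every control library had a lower median over members (-0.11 to -0.08) than every p53_activated library. The other long genes overlapped, with control medians of -0.14 to -0.01 and those of control replicates 1 and 2 above that of p53_activated replicate 1.

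Set beside other genes of like length, members had the higher median fold change in each length class. Under 5000 bases, 0 of 6 members and 2.83% of other genes rose, and from 5000 to 10000 bases 3 of 30 members (Kdm6b, Dot1l and Kmt2b) and 6.05% did. From 10000 to 15000 bases it was 2 of 21 members (Kdm2b and Ep400) and 9.44%, and from 15000 bases on it was 4 of 7 members (Kmt2a, Kmt2d, Nsd1 and Setd5) and 9.79%. Median log2 fold changes of members in these classes were 0.08, 0.10, 0.29 and 0.52, against -0.06, 0.05, 0.12 and 0.21 for other genes. After a smooth trend on exon length was removed in every library, 6 members rose (Kdm2b, Kdm6b, Kmt2b, Kmt2d, Nsd1 and Setd5), beside 4.05% of all genes, and the median of members was 0.10. Dot1l (edgeR adjusted p = 0.0694), Ep400 (0.125) and Kmt2a (0.156) then did not pass. What made fold changes move with length in these libraries was not tested.

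**Figure D4:**
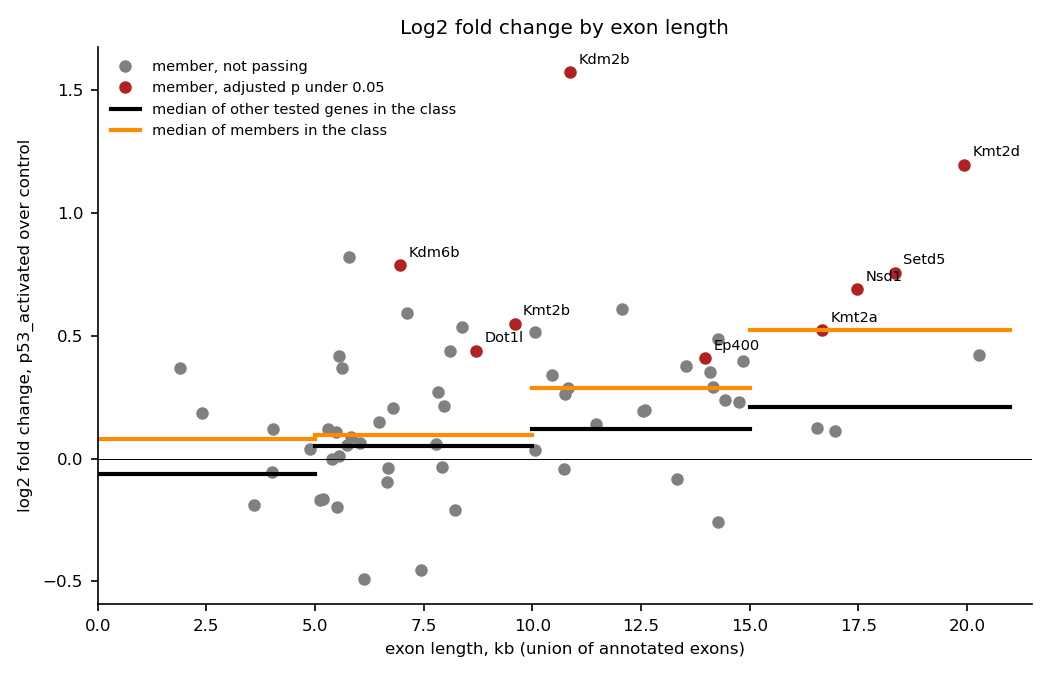
Log2 fold change (y axis, p53_activated over control) of the 64 tested members against exon length in kb (x axis), with the median of members and of other tested genes drawn for each length class. Other genes go from a median of -0.06 under 5 kb to 0.21 at 15 kb and above, and members from 0.08 to 0.52.

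Levels per exon length in control cells ran over a wide range. Ehmt2 was highest, at 114 ± 15.8 RPKM (SD, n = 5), and stood above the rest by more than the spread. Smarcd2 (44.1 ± 7.99 RPKM), Smarca4 (43.1 ± 2.22), the BAF subunit Smarce1 (40.1 ± 3.31), Smarcal1 (38.5 ± 7.84), the core subunit Smarcb1 (37.1 ± 1.95) and Kdm1a (36.7 ± 2.24) followed, and neighbours in this order did not differ beyond their spread. The median over the 66 members was 3.23 RPKM. Of the 9 that rose, all lay between 0.70 RPKM (Kdm2b) and 6.44 RPKM (Dot1l) in control. Kdm4d (0.045 RPKM) and Arid3c (0.065 RPKM) were lowest, at levels that these libraries cannot tell apart.

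Cells often exchange paralogous subunits during differentiation, so the log2 ratio of counts was compared for 8 pairs, with an exact two-sided permutation test whose smallest possible p is 0.00794. Adjusted over the 8 pairs by Benjamini-Hochberg, that floor is 0.0635 for 1 pair by itself, so no pair could pass alone in this design. The adjusted p were 0.54 to 0.849. The ratio of Smarca4 to Smarca2, the ATPases of which 1 serves each BAF complex, was 3.003, 3.001, 3.32, 3.78 and 3.63 in control and 3.52, 3.61, 3.75, 3.85 and 3.90 in p53_activated embryos. Control replicates 1 and 2 were the lowest and the groups overlapped. The difference was 0.38 ± 0.17 (SE, exact p = 0.0794, adjusted 0.54). For Ezh2 to Ezh1 the same control replicates were lowest, at 3.47 and 3.92 against 4.87 to 5.21 in the other controls, and the difference was 0.37 ± 0.41. For Smarca5 to Smarca1, the ISWI ATPases, they were at -0.60 and 0.23 against 0.97 to 1.10, and the difference was 0.50 ± 0.34. The differences were 0.28 ± 0.17 for Smarcc1 to Smarcc2, 0.52 ± 0.45 for Smarcd1 to Smarcd3, -0.03 ± 0.16 for Arid1a to Arid1b, -0.18 ± 0.31 for Kdm6a to Kdm6b and -0.11 ± 0.12 for Crebbp to Ep300. Smarcd3 shares 48.2% of its exon length with other genes, so its count is uncertain.

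**Figure D5:**
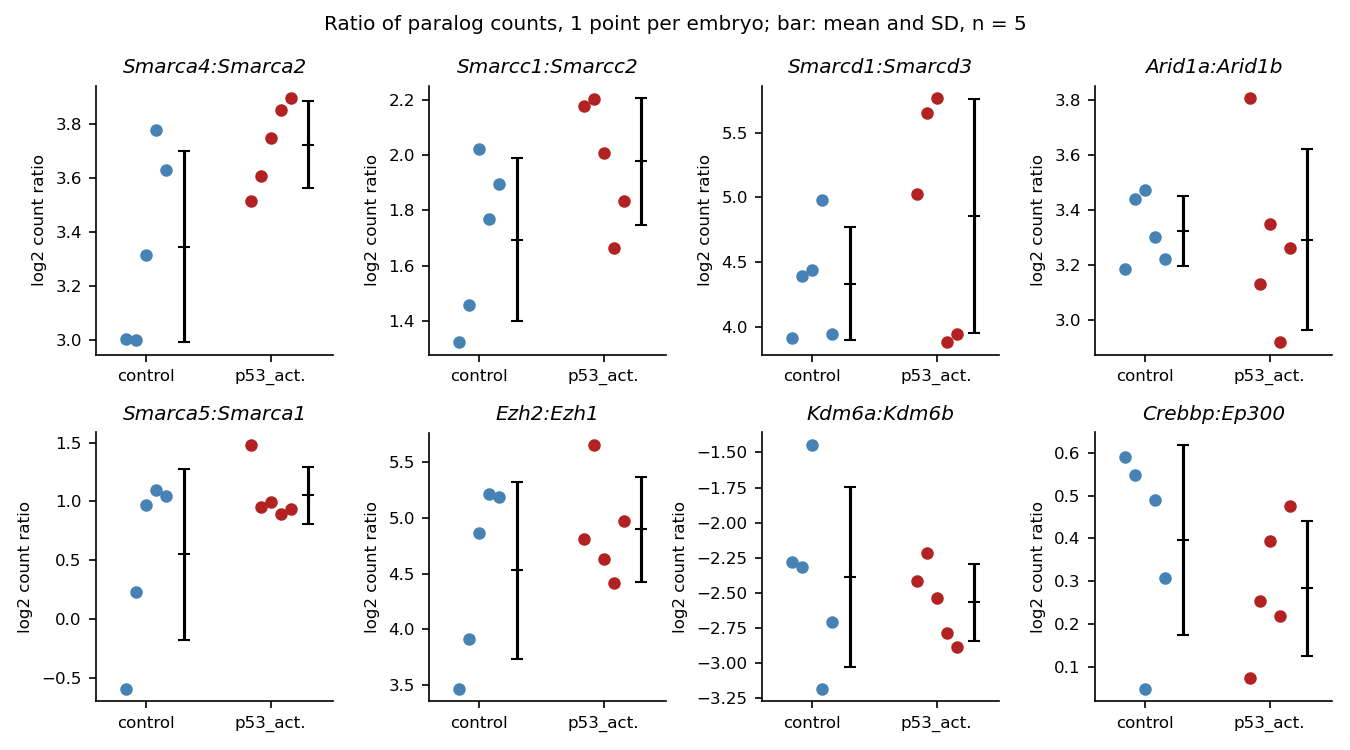
Log2 ratio of counts (y axis, its range differing between panels) for 8 paralog pairs, with 1 point per embryo and the mean and SD of 5 embryos. The groups overlap in every panel, and the low control points of Smarca5:Smarca1 (-0.60 and 0.23) are replicates 1 and 2.

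A list of other chromatin genes was read beside the members. In this list, which held partner subunits, Polycomb, deacetylase, reader and further methylation genes, 3 of 87 tested genes rose and 1 fell, with a median log2 fold change of 0.11. These counts are near or below the shares of all tested genes, 4.49% and 2.74%. Those that rose were Jmjd1c, a further JmjC protein (0.75 ± 0.17 on the log2 scale, edgeR adjusted p = 0.0158), Baz2a, the TIP5 subunit of the nucleolar remodeling complex (0.72 ± 0.18, 0.0252), and Paxip1, a partner of Kmt2c and Kmt2d (0.68 ± 0.19, 0.0423). Hdac11, a deacetylase, fell by 0.56 on the log2 scale (adjusted p = 0.0214), from 37.4 ± 8.22 to 25.3 ± 0.32 CPM. Fold changes were above 0 for 61 of the 87 tested genes of this list, against 76.6% of members and 48.6% of all tested genes. Values above 0 were thus not particular to the members. The difference in share between this list and the members was not tested. The count of 4 moved to 1 without control replicate 2, 2 without p53_activated replicate 5 and 10 without p53_activated replicate 1.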

How the data were processed

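The authors deposited a table of raw counts with a column for each library, whose name matches the sample's description. GRCm38, DESeq2 1.14.1, HTSeq 0.6.1, SAMtools 1.3.1 and HISAT2 2.0.4 are listed, per the submitters' processing notes, with no role. No source used here gives the annotation release or the strand setting. Per the file headers, the authors' deposited comparison holds a mean normalized count (a signal), a log2 fold change with its error, a test statistic (a score) and p-values.

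Genes passing filterByExpr (minimum count 10) were scaled by TMM and tested with edgeR 4.0.16 (quasi-likelihood, robust, R 4.3.3), with Benjamini-Hochberg adjustment over all 14528 tested genes and a threshold of 0.05. Errors of log2 fold changes are SE, and CPM are mean ± SD. The p-values measure the spread between embryos. Alternatives used DESeq2 1.42.0, limma-voom 3.58.1, other scalings, filters and terms, a lowess length trend (span 0.3) and left-out libraries. On simulated data, the test recovered 32.8% of 1.5-fold, 67.2% of 2-fold and 90.9% of 4-fold changes, with 6 false among 133 calls. A gene that did not pass can thus still have changed. Paralog ratios used a pseudocount of 0.5 counts. Exon lengths, overlaps and positions came from GENCODE M21 (GRCm38), which held 49412 of the identifiers (99.5%). Named members are those that passed, the smallest p and highest level per length of each role group, those needed to report a miss, and all paralog pairs. Smarce1, Smarcb1 and the cell type markers named singly were picked after their values were seen. The members and lists were chosen with earlier results of these data known.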

Additional observations from a re-analysis of the deposited data

Results flagged for a closer look

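In 9 of 144 groups of 5 embryos (6.25%, where chance gives about 1 in 20), 1 embryo stood farther from the others than the 95% critical value of Dixon's test. Control replicate 1 was high for 4 members. It had 781 CPM of Ehmt2 (others 576 to 602), 81.1 CPM of Kdm4b (60.0 to 62.9), 14.8 CPM of Kmt2e (12.8 to 13.3) and 23.7 CPM of Kmt2c (14.4 to 17.1). Control replicate 3 was low for Crebbp, at 21.6 CPM (31.9 to 34.6). Replicate 4 of the p53_activated group was high for 3 members, with 39.6 CPM of the H3K9 demethylase Kdm3a (17.9 to 22.3), 125 CPM of the H3K4 demethylase Kdm5b (97.4 to 103) and 5.43 CPM of Arid5b (1.10 to 2.01). The log2 ratio of Smarca5 to Smarca1 was high in p53_activated replicate 1, at 1.48 (0.89 to 0.99).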

How the results depend on the processing

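Against 9 members called, there were 3 without scaling factors, 4 with embryo sex as a term, 2 at an adjusted p under 0.01, 2 without both control replicates 1 and 2, 3 without both p53_activated replicates 4 and 5, and 3 to 13 when 1 library was left out (3 without control replicate 2 or 4 or p53_activated replicate 5, 4 without p53_activated replicate 4, 5 without control replicate 1 or 3). Against 1050 tested genes called, there were 1664 with DESeq2, 375 at 0.01, 656 without control replicates 1 and 2, and 636 to 1025 without 1 library (636, 692 and 652 without control replicate 2, control replicate 4 and p53_activated replicate 5). Against 4 other chromatin genes called, there were 11 without a filter, 14 with DESeq2, 0 at 0.01, 2 without control replicates 1 and 2, 0 without p53_activated replicates 4 and 5, and 1 to 10 without 1 library. No pair could pass alone in any of these designs, so a pair count of 0 says nothing of stability. Fits without pairs of libraries were added after the data were seen. The cause of these changes was not tested, beyond fewer samples where libraries were left out. Upper quartile scaling gave 576 genes higher and 538 lower, against 652 and 398. Kmt2b alone was called in all 23 other fits. No called fold change turned sign, and 22 uncalled members changed sign in some fit.

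Replicate numbers did not pair the embryos (correlations of same-numbered deviations of -0.05, 0.03, 0.11, 0.06 and 0.06). With the replicate block, 7 members, 804 tested genes and 5 other chromatin genes were called. For the pairs, the smallest exact p with the block is 0.0625, so none could pass. Depth limits Kdm4d and Arid3c, with 9 and 10 control counts.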
